A study of Mus musculus with 29 samples.

Results

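The tissue inhibitors of metalloproteases are 4 genes in the mouse, Timp1, Timp2, Timp3 and Timp4, and all 4 were found by symbol among the 56748 genes of the counts table. RNA was measured in the aortic arch of 29 mice, each a separate animal with 1 library, and 28 of them were compared. Ercc1Δ/- mice carry 1 truncated and 1 null allele of Ercc1, a subunit of an endonuclease that repairs DNA, in every cell, and their WT littermates shared the same F1 hybrid background of C57BL6J and FVB. All mice were housed alone, on synthetic AIN93G pellets and a shifted light schedule. The mice fed ad libitum (AL) were 5 WT and 5 Ercc1Δ/- mice of 6 weeks and 4 WT and 4 Ercc1Δ/- mice of 22 weeks. The mice on dietary restriction (DR) were 5 WT and 5 Ercc1Δ/- mice of 22 weeks, whose food had been lowered from 7 weeks of age in weekly steps of 10% and stood 30% below normal from 9 weeks. Both sexes were in every group, 17 males and 11 females in all.

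TIMPs are small secreted proteins that bind the active site of metalloproteases and block it. Their targets, the matrix metalloproteases (MMPs) and the related ADAM and ADAMTS proteases, cut collagens, elastin, proteoglycans and cell surface proteins, so the balance between TIMPs and proteases sets how fast the wall of an artery is remodelled. TIMP1 is the inducible member, strongly raised by cytokines and growth factors. TIMP2 is made in most tissues and also takes part in the activation of pro-MMP2 by MMP14, while TIMP3 stays bound to the extracellular matrix and inhibits ADAM17 and several ADAMTS enzymes as well as MMPs. TIMP4 has the narrowest distribution and is known from heart and fat.

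The 4 genes lie on different chromosomes. Timp1 (ENSMUSG00000001131) is at chrX:20736316-20740976 on the plus strand, Timp2 (ENSMUSG00000017466) at chr11:118191887-118246566 on the minus strand, Timp3 (ENSMUSG00000020044) at chr10:86136236-86185371 on the plus strand and Timp4 (ENSMUSG00000030317) at chr6:115187773-115229336 on the minus strand of GRCm39. Timp1, Timp3 and Timp4 each sit inside a synapsin gene read from the opposite strand (Syn1, Syn3 and Syn2). Timp2 holds Cep295nl on its own strand. Exons of Syn3 cover 21.3% of the exon bases of Timp3, exons of Syn2 14.8% of those of Timp4 and exons of Cep295nl 7.44% of those of Timp2, and no exon of Syn1 overlaps one of Timp1. Reads in shared stretches cannot be assigned with certainty, and whether the counting used strand is not given in the sources used here. The neighbours had few counts, 1 to 20 per library for Syn1, 2 to 35 for Syn2, 2 to 52 for Syn3 and 0 to 16 for Cep295nl. Syn1 and Cep295nl did not pass the filter on low counts. For genotype at 22 weeks on AL, the log2 fold change was 0.99 ± 0.34 for Syn2 (SE, edgeR adjusted p = 0.0652) and -0.28 ± 0.42 for Syn3 (SE, adjusted p = 0.715), neither of which passed the test.

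The start regions are shown as a description. Whether their base composition relates to the response of a member was not tested. Each line gives 250 bases before and 50 bases after the start site from RefSeq (table built on GRCm38.p6, each sequence found at a single place in GRCm39), with the GC box, GGGCGG on either strand, in capitals. The lines are read in the direction of the gene.
Timp1, chrX:20736155-20736454, plus strand: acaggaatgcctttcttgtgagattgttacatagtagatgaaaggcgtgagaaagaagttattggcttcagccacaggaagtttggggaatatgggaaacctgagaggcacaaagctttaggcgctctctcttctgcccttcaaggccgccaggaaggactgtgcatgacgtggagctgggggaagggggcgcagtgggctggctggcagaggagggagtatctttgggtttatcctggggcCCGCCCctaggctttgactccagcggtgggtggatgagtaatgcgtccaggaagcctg
Timp2, chr11:118246188-118246487, minus strand: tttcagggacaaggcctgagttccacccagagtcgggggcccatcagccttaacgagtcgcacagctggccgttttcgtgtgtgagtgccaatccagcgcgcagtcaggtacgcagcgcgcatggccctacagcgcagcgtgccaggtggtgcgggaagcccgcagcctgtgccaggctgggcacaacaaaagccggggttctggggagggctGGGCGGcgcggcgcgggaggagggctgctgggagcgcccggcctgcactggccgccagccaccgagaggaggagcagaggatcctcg
Timp3, chr10:86136026-86136325, plus strand: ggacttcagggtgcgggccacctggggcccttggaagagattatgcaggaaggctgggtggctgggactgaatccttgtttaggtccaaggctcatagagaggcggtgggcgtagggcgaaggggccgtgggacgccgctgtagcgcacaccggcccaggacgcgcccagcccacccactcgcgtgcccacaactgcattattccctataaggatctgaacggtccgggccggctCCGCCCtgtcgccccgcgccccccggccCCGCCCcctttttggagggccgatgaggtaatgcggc
Timp4, chr6:115229117-115229416, minus strand: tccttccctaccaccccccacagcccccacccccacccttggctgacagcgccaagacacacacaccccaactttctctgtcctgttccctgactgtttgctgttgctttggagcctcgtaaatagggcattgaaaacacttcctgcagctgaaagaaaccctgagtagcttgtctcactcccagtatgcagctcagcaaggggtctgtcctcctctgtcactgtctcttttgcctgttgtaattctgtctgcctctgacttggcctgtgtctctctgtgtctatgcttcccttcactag
Timp2 held 25 CpG dinucleotides and Timp3 24, above the third quartile of 20 over 32851 mouse promoters of the same length, while Timp1 held 8, near the median of 7, and Timp4 held 2, below the first quartile of 3. GC content was 68.7% for Timp2, 67% for Timp3, 55% for Timp1 and 53.3% for Timp4, beside a median of 52.7%. Timp3 had a pair of GC boxes, Timp1 and Timp2 had 1 each and Timp4 had none, and 35.7% of all promoters had at least 1. The AP-1 motif TGANTCA (in 7.81% of promoters), the TATA motif TATAAA (13.6%) and the STAT motif TTCNNNGAA (8.3%) were not in these windows of any member on either strand, which says nothing about binding of the factors.

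Counts on genes totalled 921167 to 9616382 per library, with a median of 3256708. Depth was not even between genotypes, since the Ercc1Δ/- AL libraries of 22 weeks (1294980 to 3855444) all lay below the WT AL libraries of that age (3903589 to 9616382). Ercc1 itself was at 52.2 to 136 normalized counts in the 14 WT libraries and 28.2 to 78.6 in the 14 Ercc1Δ/- libraries. Normalized counts are counts scaled to a common library size of 3703241, with scaling factors by the trimmed mean of M-values (TMM). A WT AL library of 22 weeks, sample 003, had 400410 counts and was left out of the comparisons. It had no Timp1 count, where 3 counts would be 29.9 normalized counts, and 4359 normalized counts of Timp2, 9297 of Timp3 and 139.7 of Timp4. Its Timp3 and Timp4 values lay above the range of the 4 other mice of its group. Its Ercc1 level was 29.9 normalized counts on 3 raw counts, below the 14 WT libraries and inside the range of the Ercc1Δ/- libraries. Results that change when sample 003 is added are given with both values.

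**Figure D1:**
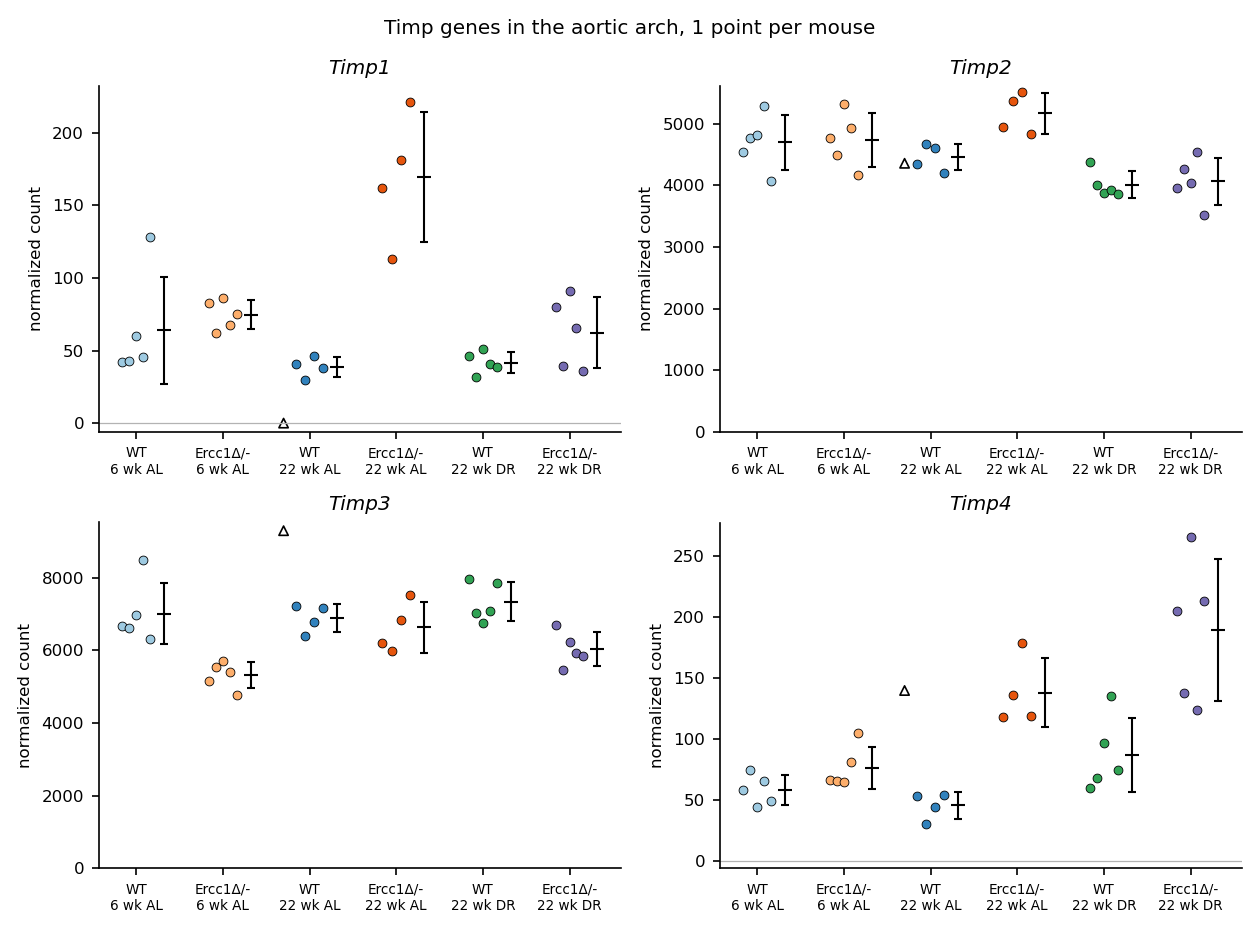
Normalized counts of each Timp gene (vertical axis, from 0) in the 6 groups, with 1 point per mouse, the mean ± SD beside the points and sample 003 as an open triangle. Timp1 was highest on average in the 4 Ercc1Δ/- AL mice of 22 weeks, at 113 to 221, with 1 WT mouse of 6 weeks at 128, and Timp4 was highest on average in the 5 Ercc1Δ/- DR mice, at 124 to 266.

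Timp2 and Timp3 made up nearly all of the TIMP mRNA of the aortic arch. Per kb of annotated exon, Timp2 averaged 899 to 1158 normalized counts and Timp3 653 to 901 over the 6 groups, against 19.8 to 86.5 for Timp1 and 5.88 to 24.4 for Timp4. The order Timp2, Timp3, Timp1, Timp4 held in 26 of 28 libraries on this scale. When the length of the longest coding transcript was used instead, Timp3 came before Timp2 in the most common order and the original order held in 8 libraries, so the rank of these 2 genes depends on the length that is assumed. Timp1 and Timp4 were below both under either length. The share of Timp1 in the summed level per kb of exon averaged 1.06% in WT AL mice of 22 weeks and 4.15% in Ercc1Δ/- AL mice of that age, and that of Timp4 0.314% and 0.855%. Counts were made over the entire gene body according to the study's methods, so that a level per kb of exon may include reads from introns. Raw counts were correspondingly unequal, from 10 to 315 per library for Timp1 and 11 to 149 for Timp4, and from 1087 to 11074 for Timp2 and 1387 to 18897 for Timp3. The smallest of these, 10 counts of Timp1 in Ercc1Δ/- DR library 014, has a 95% exact Poisson interval of 4.8 to 18.4 counts, which covers counting error only.

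**Figure D2:**
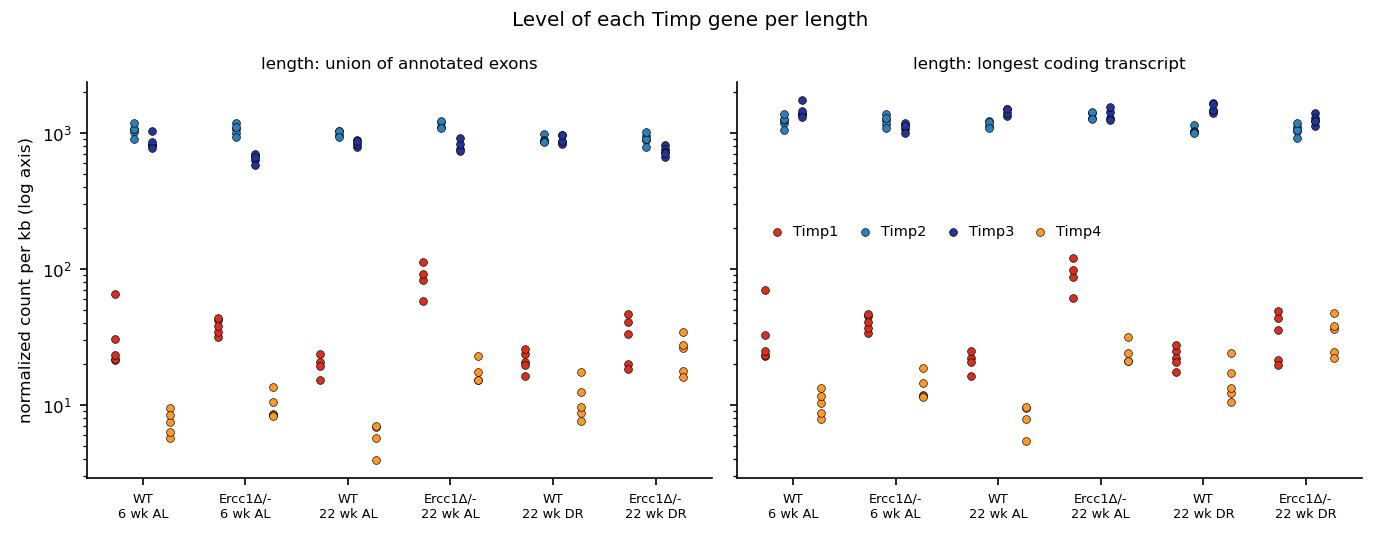
Normalized counts per kb (vertical log axis) of the 4 Timp genes in each library by group, with the union of annotated exons as length on the left and the longest coding transcript on the right. Timp2 and Timp3 lie above Timp1 and Timp4 in every library under either length, and their own order changes with the length.

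Before the restriction started, at 6 weeks, 1 of the 4 genes differed between genotypes, where 1.70% of the 12353 genes tested were called (called means an edgeR adjusted p no higher than 0.05 with a change of 1.2-fold or more). This was Timp3, the matrix-bound inhibitor, which was lower in Ercc1Δ/- mice. It had 6663, 6630, 6976, 8483 and 6327 normalized counts in the WT mice and 5161, 5531, 5722, 5404 and 4782 in the Ercc1Δ/- mice. The groups did not overlap, with 5320 ± 363 (SD, n = 5) in Ercc1Δ/- against 7016 ± 852 (SD, n = 5) in WT. The log2 fold change was -0.38 ± 0.09 (SE, edgeR adjusted p = 0.0299). An exact permutation test gave p = 0.00794, the smallest that 5 against 5 allows, and 0.0423 adjusted over the 32 such tests of the members. The call was lost without any of WT libraries 011 and 019 and Ercc1Δ/- libraries 002 and 027 (adjusted p = 0.072 to 0.0913), with sample 003 added (0.0693) and when only these 2 groups were fitted (0.111), over a range of 0.00046 to 0.111 in all 10 alternatives. Smooth muscle markers moved with it. All 10 listed genes had counts, 2 of the 10 were called lower, and their summed level was 94180 to 132900 normalized counts in Ercc1Δ/- mice and 126900 to 162200 in WT mice. At 22 weeks on AL, 8 of the 10 were called lower (67820 to 104000 against 131500 to 154500), where Timp3 was not called. The part of smooth muscle RNA in the difference of Timp3 was not tested.

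Timp1 at 6 weeks depended on 1 mouse. The WT mice had 42.3, 42.6, 60.2, 45.7 and 128 normalized counts, the last in library 024, and the Ercc1Δ/- mice had 82.9, 62.4, 85.8, 67.5 and 75.0. Library 024 rested on 315 raw counts and lay above all Ercc1Δ/- mice of that age, while the other 4 WT mice lay below all of them. With all mice the log2 fold change was 0.10 ± 0.30 (SE, edgeR adjusted p = 0.93), and without library 024 it was 0.82 (adjusted p = 0.0263). Without WT library 001 or 009 the sign turned, to -0.09 and -0.07, with adjusted p of at least 0.939. Library 001 was also the library with the highest summed nerve (3607 normalized counts) and erythroid (5724) markers. Timp2 and Timp4 did not pass the test at 6 weeks, at log2 fold changes of 0.02 ± 0.09 (SE, edgeR adjusted p = 0.943) and 0.40 ± 0.17 (SE, adjusted p = 0.301).

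At 22 weeks on AL, 2 of the 4 genes were called higher in Ercc1Δ/- mice, Timp1 and Timp4, where 12.0% of all genes tested were called in either direction. For Timp1, the 4 WT mice had 40.8, 29.9, 46.2 and 38.0 normalized counts and the 4 Ercc1Δ/- mice 162, 113, 181 and 221. Every Ercc1Δ/- mouse lay above every WT mouse. The same libraries also separated in depth and in the mitochondrial share of counts (5.37 to 5.96% in Ercc1Δ/- and 2.47 to 3.72% in WT). They separated too in reads not assigned to a single gene (14.9 to 16.8% and 12.6 to 14.1%), which include ambiguous and multiply aligned reads. Reads outside any annotated gene overlapped (7.84 to 9.43% and 7.27 to 8.14%). The part of RNA quality in the differences was not tested. The means were 169 ± 44.8 (SD, n = 4) and 38.7 ± 6.76 (SD, n = 4), a log2 fold change of 2.10 ± 0.33 (SE, edgeR adjusted p = 0.000398) or 4.29-fold.

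Timp4 separated the genotypes at 22 weeks on AL as well. The WT mice had 53.4, 30.4, 44.5 and 54.0 normalized counts and the Ercc1Δ/- mice 118, 136, 178 and 119. The lowest Ercc1Δ/- mouse lay above the highest WT mouse, and the means were 138 ± 28.2 and 45.6 ± 11.0 (SD, n = 4 each). The log2 fold change of Timp4 was 1.70 ± 0.18 (SE, edgeR adjusted p = 2.84e-06). With libraries thinned to the smallest total, 921167 counts, both genes were still called (Timp1 2.38, adjusted p = 0.000171, and Timp4 1.48, adjusted p = 0.00202), and both were called in all 10 alternatives, sample 003 included, with adjusted p up to 0.00313 for Timp1 and 0.00202 for Timp4. Exact permutation tests gave p = 0.0286 for each, the smallest that 4 against 4 allows (adjusted p = 0.0676).

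The abundant members differed less. Timp2 was at 4352, 4669, 4611 and 4209 normalized counts in the WT mice and 4944, 5372, 5514 and 4841 in the Ercc1Δ/- mice of 22 weeks on AL. These groups did not overlap, but the log2 fold change of 0.22 ± 0.10 (SE) did not pass the adjusted test (edgeR adjusted p = 0.158). Timp3 had 6899 ± 386 in WT and 6638 ± 698 in Ercc1Δ/- mice (SD, n = 4 each), with overlapping groups and a log2 fold change of -0.03 ± 0.10 (SE, edgeR adjusted p = 0.878). The 95% interval of the Timp3 difference was -0.242 to 0.177.

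With time, the genotypes took different courses. In WT AL mice no member was called between 6 and 22 weeks, where 0.235% of all genes were (12 higher and 17 lower, and 1067 genes with an unadjusted p under 0.05). Timp1 was at 63.8 ± 36.7 at 6 weeks and 38.7 ± 6.76 at 22 weeks (SD, n = 5 and 4), a log2 fold change of -0.87 ± 0.32 (SE, edgeR adjusted p = 0.418) that was -0.20 (adjusted p = 0.756) without library 024. Timp4 was at 58.2 ± 12.2 and 45.6 ± 11.0 (SD, n = 5 and 4), with a log2 fold change of -0.41 ± 0.18 (SE, edgeR adjusted p = 0.5). Timp2 and Timp3 differed by -0.07 ± 0.09 and -0.03 ± 0.10 on the log2 scale (SE).

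In Ercc1Δ/- AL mice 2 members rose from 6 to 22 weeks, where 4.69% of all genes were called. Timp1 went from 74.7 ± 9.93 (SD, n = 5) to 169 ± 44.8 (SD, n = 4), a log2 fold change of 1.14 ± 0.30 (SE, edgeR adjusted p = 0.0363), and Timp4 from 76.4 ± 17.2 to 138 ± 28.2 (SD), a log2 fold change of 0.89 ± 0.17 (SE, adjusted p = 0.00231). For both genes the lowest mouse of 22 weeks lay above the highest of 6 weeks. The Timp1 call was lost without any of 8 libraries (Ercc1Δ/- 002, 008, 023 and 027 of 6 weeks and 004, 013 and 026 of 22 weeks, and WT 025, with adjusted p = 0.051 to 0.125), without the filter on low counts (0.137) and after thinning (0.192, over a range from 0.000395 in 10 alternatives), while Timp4 was called in each of these. Timp3 went from 5320 ± 363 to 6638 ± 698 without overlap, at 0.32 ± 0.09 on the log2 scale (SE), and missed the threshold with an edgeR adjusted p of 0.0556. DESeq2 called Timp3 (adjusted p = 0.0102), as did upper-quartile scaling (0.0485), a fit over all 6 groups (0.0174) and the fit without WT library 019 (0.0441), over a range of 0.0102 to 0.149 in 10 alternatives. Timp2 had 4735 ± 436 and 5168 ± 326 normalized counts and was not called (0.12 ± 0.09 SE, edgeR adjusted p = 0.543).

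The difference between the genotype effects at 22 and at 6 weeks was tested as an interaction, which called 2 members, again Timp1 and Timp4, and 0.842% of all genes. The genotype effect was larger at 22 weeks by 2.00 ± 0.44 on the log2 scale for Timp1 (SE, edgeR adjusted p = 0.043) and by 1.30 ± 0.25 for Timp4 (SE, adjusted p = 0.00981). The Timp1 interaction rested on little margin, as its adjusted p was 0.0555 to 0.167 without any of 13 of the 18 libraries (WT 011, 012, 018, 020 and 025 and Ercc1Δ/- 002, 004, 008, 013, 015, 023, 026 and 027), and it was 1.39 (adjusted p = 0.00797) without library 024. It was also lost without the filter on low counts (0.152) and after thinning (0.0986), over a range from 0.00105 in 9 alternatives. The Timp4 interaction was called without any library in turn, but not with sample 003 added (1.12, adjusted p = 0.159), in a fit over all 6 groups (0.061) or after thinning (0.29, over a range from 0.000304 in 9 alternatives). Timp2 (0.20 ± 0.13 SE, adjusted p = 0.634) and Timp3 (0.35 ± 0.13 SE, adjusted p = 0.294) did not pass.

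**Figure D3:**
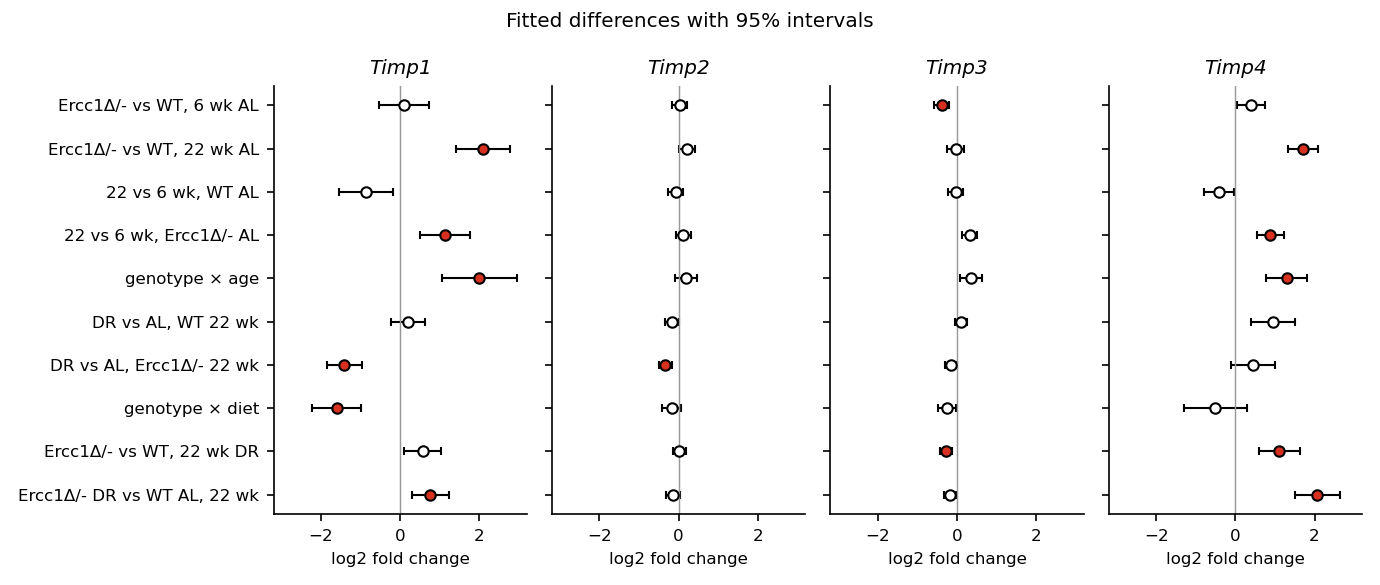
Log2 fold change (horizontal axis) of each Timp gene in 10 comparisons fitted with edgeR, with 95% intervals, and filled points for called differences. Timp1 and Timp4 lie at 2.10 and 1.70 for genotype at 22 weeks on AL, Timp1 lies at -1.41 and Timp4 at 0.45 for DR in Ercc1Δ/- mice, and Timp2 and Timp3 stay within 0.4 of 0 throughout.

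Restriction lowered 2 members in Ercc1Δ/- mice, Timp1 and Timp2, where 1.64% of all genes were called. Timp1 was at 79.9, 39.3, 90.9, 65.4 and 36.2 normalized counts in the 5 DR mice, each below the lowest of the 4 AL mice (113). The mean was 62.3 ± 24.3 (SD, n = 5) on DR against 169 ± 44.8 (SD, n = 4) on AL, a log2 fold change of -1.41 ± 0.21 (SE, edgeR adjusted p = 0.00107), and Timp1 ranked 8 by p among all genes tested. The call held in all 10 alternatives (adjusted p up to 0.0183) and without any library in turn (up to 0.00955). The same 4 Ercc1Δ/- AL mice stand in the comparison of genotypes above, so the 2 results are not independent.

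Timp2 fell by less. The 5 Ercc1Δ/- DR mice had 3957, 4272, 4031, 4550 and 3522 normalized counts, all below the 4 AL mice (4841 to 5514). The log2 fold change was -0.34 ± 0.08 (SE, edgeR adjusted p = 0.0345, exact permutation p = 0.00794, adjusted 0.0423). It was not called without any of Ercc1Δ/- AL libraries 005, 013 and 026 and DR libraries 014 and 029 (adjusted p = 0.0587 to 0.0955), with sample 003 added (0.0581) or with only these 2 groups fitted (0.142, over a range from 0.00225 in 10 alternatives). Timp3 had 6033 ± 466 on DR and 6638 ± 698 on AL (SD, n = 5 and 4) and was not called (-0.14 ± 0.07 SE, edgeR adjusted p = 0.369).

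Timp4 did not fall with restriction in Ercc1Δ/- mice. The DR mice had 204.5, 138, 266, 124 and 213 normalized counts, against 118 to 178 in the AL mice. The groups overlapped, and the mean on DR was 189 ± 58.2 (SD, n = 5), with a log2 fold change of 0.45 ± 0.26 (SE, edgeR adjusted p = 0.452) and a 95% interval of -0.108 to 1.002. The highest DR mouse, library 016, was also the library with the highest summed macrophage markers (4766 normalized counts), and without it the log2 fold change was 0.32 (adjusted p = 0.615).

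In WT mice no member was called for restriction, where 1.28% of all genes were called (42 higher, 116 lower, 1581 with an unadjusted p under 0.05). Timp4 came nearest. The DR mice had 59.5, 68.3, 97.0, 135 and 74.9 normalized counts, all above the 4 AL mice (30.4 to 54.0), with a log2 fold change of 0.96 ± 0.26 (SE, edgeR adjusted p = 0.097, exact permutation p = 0.0238, adjusted 0.0676). DESeq2 called Timp4 (adjusted p = 0.0116), as did the fit over all 6 groups (0.0417) and the fit without WT DR library 007 (1.12, adjusted p = 0.0286), and after thinning its log2 fold change was 0.65 (adjusted p = 0.573, the highest of 10 alternatives). Sample 003, an AL mouse, had 139.7 normalized counts of Timp4 on only 14 raw counts. This value was above every WT DR mouse but close to the highest of them (135), and its counting error was not computed. The other members differed by 0.20 ± 0.21 (Timp1), -0.16 ± 0.08 (Timp2) and 0.11 ± 0.07 (Timp3) on the log2 scale (SE), with edgeR adjusted p from 0.407 to 0.761.

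The difference between the DR effects of the 2 genotypes was called for 1 member, Timp1, and for 0.0971% of all genes, which is 12 genes. For Timp1, the log2 fold change with DR in Ercc1Δ/- mice minus that in WT mice was -1.60 ± 0.30 (SE, edgeR adjusted p = 0.0349), the fifth of all genes by p. It was not called without any of 9 of the 18 libraries (WT 017, 018, 021 and 025 and Ercc1Δ/- 004, 013, 014, 022 and 026, adjusted p = 0.0533 to 0.122), with sample 003 added (0.0894), without the sex term (0.105), in the fit over all 6 groups (0.273) or after thinning (0.111), over a range from 0.000128 in 9 alternatives, and its sign was the same in each. For Timp4 the difference was -0.51 ± 0.38 (SE, adjusted p = 0.766), so that a larger DR effect in either genotype was not shown. The same held for Timp3 (-0.25 ± 0.11 SE, adjusted p = 0.5) and Timp2 (-0.17 ± 0.12 SE, adjusted p = 0.717). In WT mice the DR effect on Timp2 had the same sign and was not called (-0.16 ± 0.08 SE, adjusted p = 0.407).

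On DR, the genotypes differed in 2 members, Timp3 and Timp4, where 13.0% of all genes were called. Here too the libraries separated in depth, 921167 to 2572523 counts in Ercc1Δ/- and 2660422 to 6124471 in WT mice. Reads not assigned to a single gene separated as well (15.8 to 18.7% and 13.1 to 15.7%). The part of RNA quality in these differences was not tested. Timp4 was higher in Ercc1Δ/- mice, 189 ± 58.2 against 87.0 ± 30.4 (SD, n = 5 each), at 1.11 ± 0.24 on the log2 scale (SE, edgeR adjusted p = 0.00517), although the groups overlapped. Timp3 was lower, with 6705, 5451, 6220, 5935 and 5854 normalized counts in Ercc1Δ/- and 7964, 7033, 6744, 7095 and 7847 in WT mice. These did not overlap, and the log2 fold change was -0.28 ± 0.07 (SE, edgeR adjusted p = 0.0087). This lies just past the 1.2-fold limit, which is 0.263, and without WT library 007, 021 or 028, without Ercc1Δ/- library 029 or after thinning it was -0.25 or -0.26 with an adjusted p of 0.0225 to 0.0311. With sample 003 added its adjusted p was 0.0644, and the range over 10 alternatives was 4.36e-05 to 0.0644. On DR, 8 of the 10 smooth muscle markers were lower in Ercc1Δ/- mice, with a summed level of 96440 to 103500 normalized counts against 133400 to 173100. Timp1 was at 62.3 ± 24.3 in Ercc1Δ/- and 41.6 ± 7.24 in WT mice on DR (SD, n = 5 each) and was not called (0.57 ± 0.22 SE, edgeR adjusted p = 0.0957), although it was without WT library 017 (0.73, adjusted p = 0.0377) or Ercc1Δ/- library 029 (0.76, adjusted p = 0.0208).

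Set against WT AL mice of 22 weeks, restricted Ercc1Δ/- mice were called higher for Timp4 and Timp1, where 16.8% of all genes were called. These groups also separated in depth (921167 to 2572523 counts against 3903589 to 9616382 in WT AL mice). Reads not assigned to a single gene separated too (15.8 to 18.7% against 12.6 to 14.1%), and the part of RNA quality was not tested. Timp4 was at 4.21-fold (log2 2.07 ± 0.27 SE, edgeR adjusted p = 4.85e-05) and did not overlap. Timp1 was at 1.7-fold (log2 0.77 ± 0.23 SE, adjusted p = 0.0229) with overlapping groups (exact permutation p = 0.127, a test without the sex term), and its call was lost without any of Ercc1Δ/- libraries 006, 016 and 022 and WT libraries 018 and 025 (adjusted p = 0.0568 to 0.087) and in the fit over all 6 groups (0.128, over a range from 0.0102 in 10 alternatives). Timp3 was called lower in this comparison with sample 003 added (-0.29, adjusted p = 0.0434), and not without it (-0.17 ± 0.07 SE, adjusted p = 0.123).

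The order of the 6 group means summarises these levels. For Timp1 the Ercc1Δ/- AL mice of 22 weeks were highest and did not overlap the next group, Ercc1Δ/- at 6 weeks. This pair did not pass the adjusted test (exact permutation p = 0.00794, adjusted p = 0.159 over the 20 pairs of neighbours of the 4 genes). The other neighbours for Timp1 overlapped. The pairs were set by the order of the same means, so these p-values are descriptive. For Timp4 the order from high to low was Ercc1Δ/- DR, Ercc1Δ/- AL, WT DR, Ercc1Δ/- at 6 weeks, WT at 6 weeks and WT AL at 22 weeks. Neighbours in that order overlapped throughout, as did those for Timp2 and Timp3, and no adjusted p among the 20 pairs was below 0.159.

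Since Timp1 is on the X chromosome, the sex term was read from a fit over all 28 libraries. No member was called between males and females, where 0.186% of all genes were (11 higher in males, 12 higher in females, 967 with an unadjusted p under 0.05). Timp1 differed by -0.04 ± 0.17 on the log2 scale (SE, edgeR adjusted p = 0.978), and Timp3 had the smallest p, at 0.11 ± 0.05 (SE, adjusted p = 0.593).

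Ratios between members within a library do not depend on the scaling of libraries and compare the responses directly. Of 42 ratios, 6 pairs in each of 7 comparisons, 9 had an adjusted p of at most 0.05 in two-sided exact permutation tests with Benjamini-Hochberg adjustment over the 42. DR in Ercc1Δ/- mice lowered Timp1 against Timp4, by -1.89 on the log2 scale, from 0.274 ± 0.504 (SD, n = 4) to -1.616 ± 0.597 (SD, n = 5), with exact p = 0.00794 and adjusted p = 0.037. It also lowered Timp1 against Timp3, by -1.34 (adjusted p = 0.037). Each of the 9 had this exact p, the smallest that 5 against 5 or 4 against 5 allows.

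**Figure D4:**
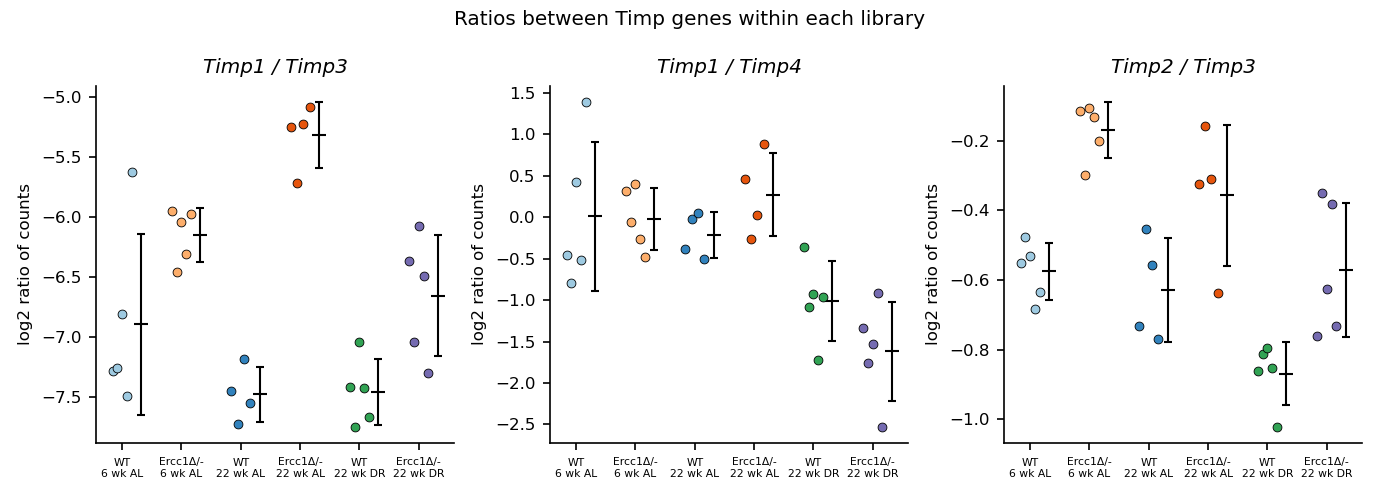
Log2 ratio of raw counts (plus 0.5) between pairs of Timp genes in each library (vertical axes) by group, with mean ± SD. On average, Timp1 against Timp3 was highest in the Ercc1Δ/- AL mice of 22 weeks, Timp1 against Timp4 lowest in the Ercc1Δ/- DR mice, and Timp2 against Timp3 was above WT in the Ercc1Δ/- mice of 6 weeks.

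The abundant pair differed in its ratio between genotypes in 2 of the 3 comparisons. At 6 weeks, the log2 ratio of Timp2 to Timp3 in Ercc1Δ/- mice exceeded that in WT mice by 0.41 (-0.17 ± 0.08 against -0.58 ± 0.08, SD, n = 5 each) and by 0.30 on DR at 22 weeks (n = 5 each), both with exact p = 0.00794 and adjusted p = 0.037. At 22 weeks on AL the difference was 0.27 with overlapping groups (n = 4 each, exact p = 0.0857, adjusted p = 0.136). In WT mice DR lowered this ratio by -0.24 (adjusted p = 0.037), but with sample 003 added the difference was -0.15 (adjusted p = 0.273). Timp3 against Timp4 was lower in Ercc1Δ/- mice by -0.77 at 6 weeks and by -1.41 on DR (adjusted p = 0.037 each). From 6 to 22 weeks in Ercc1Δ/- mice, Timp1 rose against Timp2 by 1.02 and against Timp3 by 0.83 (adjusted p = 0.037 each). Timp1 against Timp4 did not pass the test for genotype at 22 weeks on AL (0.49, adjusted p = 0.188), and there 4 of the 6 ratios did not overlap but reached no adjusted p below 0.0667, since 4 against 4 cannot give a smaller exact p than 0.0286. When 1 mouse was left out, 6 of the 9 calls were lost whichever mouse of their groups it was (adjusted p = 0.0556 to 0.0833). For calls of 4 against 5 mice, leaving 1 out raises the smallest exact p that the test allows, to 0.0286 for 4 against 4. The loss of those calls therefore does not show that they rested on a single mouse. The other 3 were lost without any of the 5 Ercc1Δ/- mice of the comparison, and Timp3 against Timp4 at 6 weeks also without WT library 011 (adjusted p = 0.0556 to 0.0741). As p was adjusted over all 42 ratios, each of the 9 calls was lost when any 1 of the 14 Ercc1Δ/- libraries was left out.

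In a bulk sample, a change in the number of cells of a type cannot be told apart from a change in RNA per cell. Macrophage markers were higher together with Timp1 for genotype at 22 weeks on AL. All 12 listed genes had counts in every group. Of the 10 tested, 8 were called higher with genotype at 22 weeks on AL and 5 lower with DR in Ercc1Δ/- mice, beside 12.0% and 1.64% of all genes. The summed level of all 12 was 849 to 1022 normalized counts in WT and 1077 to 2528 in Ercc1Δ/- mice of 6 weeks. At 22 weeks it was 1099 to 1555 in WT AL, 2407 to 4189 in Ercc1Δ/- AL, 731 to 1344 in WT DR and 1602 to 4766 in Ercc1Δ/- DR mice. The genotypes did not overlap in this level at 6 weeks or on DR. Timp1 was not called in either with all mice. It was called at 6 weeks without library 024 (0.82, edgeR adjusted p = 0.0263) and on DR without WT library 017 or Ercc1Δ/- library 029. With DR in Ercc1Δ/- mice the summed level overlapped between diets through library 016 alone (4766), which also had the highest Timp1 of the DR mice (90.9). The other DR mice were at 1602 to 1981, below all AL mice. Timp1 did not overlap between diets. Lymphocyte markers moved with genotype too. Of 10 listed genes 2 were tested, both were called higher at 22 weeks on AL and neither with DR in Ercc1Δ/- mice. The summed level of all 10 was 41.7 to 70.1 in WT AL, 109 to 138 in Ercc1Δ/- AL and 19.7 to 170 in Ercc1Δ/- DR mice of that age, with Nkg7 at 0 in both AL groups. For fat markers, of which 2 of 12 were called with genotype at 22 weeks on AL (1 higher, 1 lower), the summed level was 6943 to 9259, 7041 to 19290 and 10910 to 21260 in these groups and at 5793 to 19240 in WT DR mice. The WT DR mice with the highest Timp4, libraries 021 and 017, were also highest in fat markers (15430 and 19240), and sample 003 had 21680. Library 027 was likewise highest in both among the Ercc1Δ/- mice of 6 weeks (104.7 and 19910). In 2 other groups the order was reversed. Library 013 had the highest Timp4 (178.3) and lowest fat markers (7041) of the Ercc1Δ/- AL mice of 22 weeks. Library 016 had the highest Timp4 (265.6) and lowest fat markers (10910) of the Ercc1Δ/- DR mice. Of 7 tested cardiac markers, 1 was called higher with genotype at 22 weeks on AL and 1 on DR. The median log2 fold change of the 7 was -0.446 on AL and 1.22 on DR. The summed level of all 10 listed was 543 to 1128 in WT AL, 790 to 1421 in Ercc1Δ/- AL, 523 to 913 in WT DR and 951 to 2279 in Ercc1Δ/- DR mice of 22 weeks, so that the genotypes overlapped on AL and not on DR. Nppa was at 0 in all but the first of these groups. Of 10 fibroblast markers, 4 were called lower with genotype at 22 weeks on AL (summed 27060 to 34100 against 34610 to 42920). Mesothelium markers overlapped there (577 to 992 in Ercc1Δ/-, 41.7 to 622 in WT), with 0 of 5 called. In Ercc1Δ/- AL mice of 6 weeks the mesothelium sum was 68.2 to 562. The part of macrophage, lymphocyte, fibroblast or mesothelium RNA in the Timp1 differences was not tested. Nor was that of fat, cardiac, fibroblast or mesothelium RNA in the Timp4 differences.

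Within groups, no relation between members or with macrophage, fat, cardiac or smooth muscle markers passed the adjusted test. Over 28 libraries, values centred on the group means gave r = 0.249 and rho = 0.178 between macrophage markers and Timp1 (100000 permutations within groups, p = 0.288 and 0.402, adjusted p = 0.662 and 0.704), and r = -0.033 without the 2 libraries farthest from the median of the marker. For fat markers and Timp4 they were r = 0.232 and rho = 0.203 (permutation p = 0.301 and 0.348, adjusted p = 0.662 and 0.696), and r = 0.047 without 2 libraries. For cardiac markers and Timp4 they were r = 0.014 and rho = 0.007 (permutation p = 0.952 and 0.977, adjusted p = 0.952 and 0.977), and r = 0.121 without 2 libraries. The strongest of the 22 relations computed was between fat markers and Timp3 (r = -0.528 and rho = -0.524, permutation p = 0.0072 and 0.0122, adjusted p = 0.158 and 0.179), and it was r = -0.408 without 2 libraries. Smooth muscle markers and Timp3 gave r = 0.445 and rho = 0.517 (permutation p = 0.052 and 0.0163, adjusted p = 0.381 and 0.179), and r = 0.361 without 2 libraries. Among the 6 pairs of members, r ran from -0.314 for Timp2 and Timp4 to 0.314 for Timp2 and Timp3, with adjusted p of at least 0.544.

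**Figure D5:**
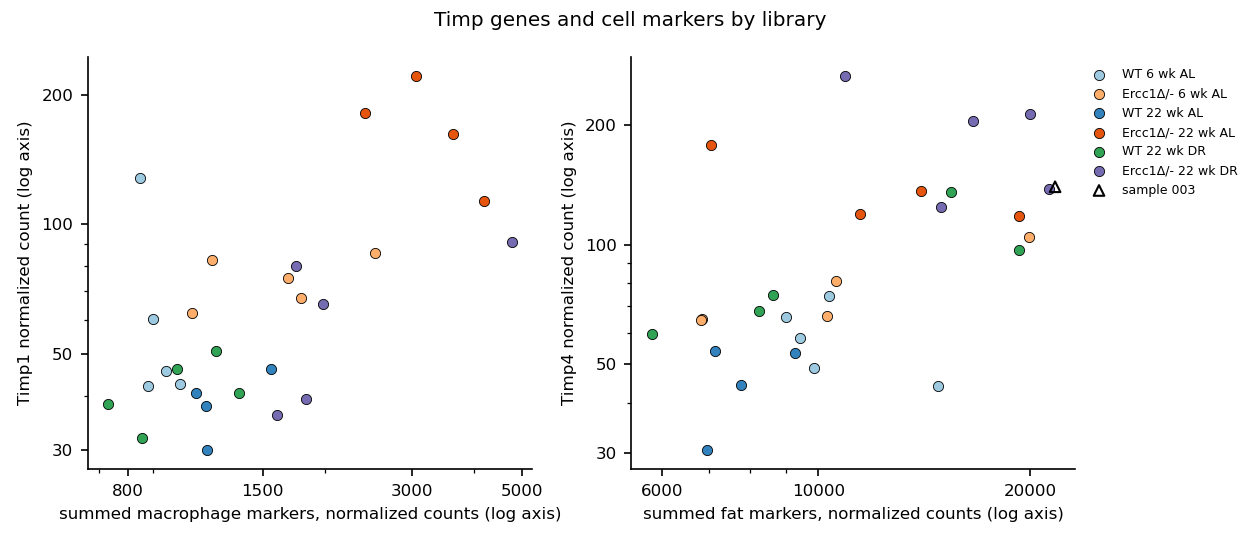
Normalized counts (vertical log axes) of Timp1 against the summed level of 12 macrophage markers and of Timp4 against that of 12 fat markers (horizontal log axes), with 1 point per mouse and sample 003 as an open triangle (it has no Timp1 count). The Ercc1Δ/- AL mice of 22 weeks are high in both Timp1 and macrophage markers, while within groups r is 0.249 and 0.232.

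The share of metalloproteases and other partners of the TIMPs that was called varied between comparisons. Of 65 listed genes, 41 passed the filter on low counts, and 6 of these (14.6%) were called with genotype at 22 weeks on AL and 3 (7.32%) with DR in Ercc1Δ/- mice, beside 12.0% and 1.64% of all genes. With age in Ercc1Δ/- AL mice 8 of the 41 were called (19.5%, beside 4.69% of all genes), and 14 were called for genotype on DR and 14 for restricted Ercc1Δ/- against WT AL mice (34.1% each, beside 13.0% and 16.8%). For genotype at 22 weeks on AL 1 of the 11 tested MMPs rose and 1 fell (median log2 fold change 0.155, beside 0.0268 over all genes), and for DR in Ercc1Δ/- mice 2 fell and none rose (median -0.216, beside 0.000117). Mmp3, stromelysin 1, which cuts many matrix proteins and activates other MMPs, was called higher with genotype and lower with DR. It was at 30.5 ± 10.7 in WT AL, 160 ± 27.5 in Ercc1Δ/- AL and 63.7 ± 16.8 in Ercc1Δ/- DR mice of 22 weeks (SD, n = 4, 4 and 5). Its log2 fold changes were 2.55 ± 0.21 for genotype on AL (SE, edgeR adjusted p = 7.25e-08) and -1.36 ± 0.22 for DR in Ercc1Δ/- mice (SE, adjusted p = 0.00139), beside 2.10 and -1.41 for Timp1, and these comparisons share the same mice.

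Other proteases were called with genotype but not with DR in Ercc1Δ/- mice. Mmp17, a membrane-anchored MMP, was lower in Ercc1Δ/- AL mice of 22 weeks, at 388 ± 59.0 against 759 ± 58.8 (SD, n = 4 each, log2 fold change -0.94 ± 0.10 SE, edgeR adjusted p = 2.84e-06). Adam33, which is made by smooth muscle cells and fibroblasts, was lower by a similar amount (-0.99 ± 0.12 SE, adjusted p = 8.88e-06), and Adam8, a sheddase of leukocytes, was higher (2.78 ± 0.34 SE, adjusted p = 1.17e-05) on 3 to 86 counts per library. These 3 genes had DR effects in Ercc1Δ/- mice of 0.01, 0.04 and -0.25 on the log2 scale, with adjusted p of at least 0.747. Of 11 ADAMTS genes tested, 1 was called with genotype on AL, Adamts8 (-0.58 ± 0.17 SE, adjusted p = 0.0289), which was also lower on DR in WT mice (-0.91 ± 0.15 SE, adjusted p = 0.00177). Mmp23 was lower on DR in Ercc1Δ/- mice (-0.45 ± 0.11 SE, edgeR adjusted p = 0.0353), as was Serpine2, an inhibitor of serine proteases (-0.54 ± 0.11 SE, adjusted p = 0.0133). Itga3, the α3 integrin subunit with which TIMP2 can associate, was lower in Ercc1Δ/- mice at 6 weeks (-0.62 ± 0.13 SE, adjusted p = 0.0132), at 22 weeks on AL (-0.49 ± 0.14 SE, adjusted p = 0.0282) and on DR (-0.57 ± 0.07 SE, adjusted p = 6.72e-06).

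The genes whose log2 CPM (the log2 share of the library, prior count 2) followed each member most closely over the 28 libraries are given as a description, with the correlation centred within groups beside it. The libraries share depth, scaling and cell makeup. For Timp1 they were Gadd45a (r = 0.843, centred 0.497), a stress response gene induced by DNA damage, Fxyd5 (0.814, centred 0.631), Mgp, the matrix Gla protein that limits calcification of arteries (0.812, centred 0.249), Arpc1b (0.798, centred 0.411) and Col8a1, a short-chain collagen (0.784, centred 0.287). For Timp4 they were the metallothioneins Mt2 (r = 0.889, centred 0.573) and Mt1 (0.882, centred 0.632), Prg4, which encodes lubricin (0.877, centred 0.452), Cyp2b10 (0.874, centred 0.447) and Serpina3n (0.864, centred 0.402).

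No gene was among the 5 closest of more than 1 member. For Timp2 they were the lysosomal enzymes Ctsc (r = 0.813, centred 0.512), Ctsh (0.776, centred 0.614) and Hexa (0.772, centred 0.432), with Fcrl2 (0.797, centred 0.507) and Nupr1 (0.777, centred 0.509). For Timp3 they included Nox4, an NADPH oxidase of the vessel wall (0.84, centred 0.718), Gm17501 (0.794, centred 0.406), Rock2, a kinase that acts in smooth muscle contraction (0.791, centred 0.699) and S100a6 (0.788, centred 0.601). Centring lowered each of the correlations given, most for Mgp.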

How the data were processed

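RNA of the aortic arch was read in 29 mice. The authors prepared directional libraries with unique molecular identifiers (UMIs), aligned the reads with STAR 2.7.10a to GRCm39 (mm39) with Ensembl annotation, removed duplicates with UMI-tools 1.1.2 and counted reads with HTSeq 2.0.2, and they deposited raw counts per gene and library without normalization. Counts are therefore molecules, and the strand setting is not given in the sources used here. Reads not assigned to a single gene, ambiguous and multiply aligned reads included, were left out of library sizes (12.6 to 18.7% of reads over the 28 libraries). Sample 003 was left out and added as an alternative. Gene positions and lengths are from a GENCODE annotation of GRCm39.

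A gene was tested if over 10 of the 28 libraries held over 10 counts of it (12353 genes, all 4 Timp genes among them). The tests were robust quasi-likelihood F tests in edgeR 4.0.16 (R 4.3.3, TMM factors 0.935 to 1.07), with group and sex as terms, in 18 AL-fed libraries for genotype and age and 18 libraries of 22 weeks for diet, as in the study. P-values were adjusted by Benjamini-Hochberg over all genes tested, and a gene was called at an adjusted p no higher than 0.05 with a change of 1.2-fold or more, with no fold limit for interactions. The study's methods used DESeq2, which was run here as an alternative (1.42.0). Group means of the members and ratios between them were also set against each other by exact permutation (two-sided, no sex term) in Python 3.11.15, with adjustment over the 32 tests of members and over the 42 of ratios. The fits were tested on simulated data.

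The 4 genes, the gene lists and the rule for named genes were chosen with earlier results of these data known. The rule took the members, the genes overlapping them, Ercc1, the 5 genes most alike each member and, from 4 lists (MMPs, ADAMs, ADAMTSs, other inhibitors and partners), up to 8 genes called with genotype at 22 weeks on AL or with DR in Ercc1Δ/- mice. For Timp3, 1 of its 5 is not reported here. The alternatives were DESeq2, scaling by RLE or by the upper quartile, all genes kept, sample 003 included, sex left out of the model, fits to just the pair of groups or to all 6, thinning, each library left out in turn and, chosen after seeing the data, the earlier dispersion method of edgeR.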

Additional observations from a re-analysis of the deposited data

Results flagged for a closer look

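In 2 of 24 sets of 4 or 5 mice, 1 mouse lay far from the others by Dixon's gap criterion, and chance alone gives about 1 in 20. Timp1 was at 128.2 normalized counts in WT library 024 of 6 weeks, with the nearest other mouse at 60.2. Timp2 was at 4385 normalized counts in WT DR library 007, with the other 4 mice at 3865 to 4001. The effect of genotype differed between ages for Timp1 (by 2.00 on the log2 scale) and Timp4 (by 1.30), and the effect of DR differed between genotypes for Timp1 (by -1.60), each by an interaction test in edgeR. Sample 003, which was outside the comparisons, was at 9297 normalized counts of Timp3 and 139.7 of Timp4 on 932 and 14 raw counts, above the 4 other WT AL mice of 22 weeks (6401 to 7226 and 30.4 to 54.0).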

How the results depend on the processing

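The number of members called at 6 weeks (1, Timp3) was 0 with sample 003 added or only the compared groups fitted and 0 to 2 when each library was left out. For genotype at 22 weeks on AL it was 2 in each alternative and without any library. For age in Ercc1Δ/- mice (2) it was 1 without the filter on low counts or after thinning, 3 by DESeq2, with upper-quartile scaling or with all 6 groups and 1 to 3 without 1 library. For genotype by age (2) it was 1 without the filter, with sample 003 or with all 6 groups fitted, 0 after thinning and 1 to 2 without 1 library. For DR in WT mice (0) it was 1 by DESeq2 or with all 6 groups fitted and 0 to 1 without 1 library, and for DR in Ercc1Δ/- mice (2) it was 1 with sample 003 or only the compared groups and 1 to 2 without 1 library. For genotype on DR (2) it was 1 with sample 003 or after thinning and 1 to 3 without 1 library. For genotype by diet (1) it was 0 with sample 003, without the sex term, with all 6 groups or after thinning and 0 to 1 without 1 library. For restricted Ercc1Δ/- against WT AL mice (2) it was 1 with all 6 groups, 3 with sample 003 and 1 to 2 without 1 library. Fewer genes were tested after thinning (9629), and fits without 1 library held fewer mice. The cause of the changed counts was not tested. Ratios called (9 of 42) were 0 to 11 without 1 library. The order of levels per kb held in 26 libraries, and in 8 with the longest coding transcript.

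Signs turned only for differences that were not called. Timp2 at 6 weeks was 0.00 and Timp2 on DR -0.04 without the filter, Timp3 with sample 003 was 0.08 for age in WT and -0.01 for DR in WT mice, and for males against females Timp2 was 0.00 with upper-quartile scaling and Timp1 0.15 after thinning. Without 1 library, Timp1 at 6 weeks ran from -0.09 to 0.82, Timp2 at 6 weeks from -0.03 to 0.06, Timp2 on DR from -0.02 to 0.07, Timp3 for age in WT from -0.07 to 0.04, and for sex Timp1 from -0.10 to 0.22 and Timp2 from -0.03 to 0.01. Of 420 fold changes under the other alternatives, 390 kept their direction and their side of the threshold. No paired analysis was possible because each mouse gave 1 library and no library number was shared between groups. Depth limits Timp1 and Timp4 most, with as few as 10 and 11 counts.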
